A study of Mus musculus with 12 samples.

Results

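The cytosolic ribosomal protein genes are the protein-coding rows of the count table whose symbols follow the Rpl, Rps and Rplp naming pattern, with Rpsa included and the Rps6k kinases left out. By this rule, 83 of the 54022 rows belonged to them. They comprised 43 genes of the large subunit, 31 of the small subunit, the 3 stalk genes Rplp0, Rplp1 and Rplp2, and 6 paralogs of core genes (Rpl3l, Rpl7l1, Rpl10l, Rpl22l1, Rpl39l and Rps27l). Fau, which encodes a ribosomal protein fused to a ubiquitin-like protein, has another kind of name and falls outside it.

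MIN6 cells, a mouse insulinoma line, labelled wild type, were treated with TMAO (trimethylamine N-oxide, 100 nM, 18 h) or vehicle in low or high glucose, to explore the mechanism by which TMAO acts on beta cells. Each of the 4 conditions was sequenced as 3 biological replicates: low glucose with vehicle, low glucose with TMAO, high glucose with vehicle and high glucose with TMAO. The labels name neither the vehicle nor the glucose concentrations, and all cells are of the same tumour-derived line, grown without other islet cells. All 8 beta cell markers examined were expressed, from 67.1 FPKM for Slc2a2 to 25489 FPKM for Ins2. Gcg, the glucagon gene, was also present at 216 FPKM, Sst, the somatostatin gene, at 1.39 FPKM and the fibroblast gene Col1a1 at 0.403 FPKM. Ppy, Ptprc, Cpa1, Prss1 and Col1a2 were at 0 or under 0.06 FPKM on average. Library totals, summed over all genes, lay between 16793162 and 22340542 fragments.

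The ribosome is built from a large and a small subunit, each a scaffold of ribosomal RNA carrying many small proteins, most of which are needed in equal numbers. In mammals the mRNAs of these proteins begin with a C followed by a stretch of pyrimidines, the 5′ terminal oligopyrimidine tract, through which mTORC1 and LARP1 control their translation. They are among the most abundant mRNAs of most cells, and copies of them have been inserted throughout the mouse genome as processed pseudogenes.

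The tract is seen in part of the annotated start sites. In the RefSeq promoter table (GRCm38.p6), 63 of the 83 genes had an entry, with 75 start sites. A C followed by 4 bases that are each C or T stood exactly at the start in 13 of the 75 sites (17.3%), compared with 2.51% of all 32851 promoters. When the run was allowed to begin within 10 bases on either side of the start, 41 of the 75 sites (54.7%) and 29.7% of all promoters had it. Only the strand with the sequence of the mRNA was searched. The windows that follow run from 10 bases before the annotated start to 20 bases from it, so that the 11th base is the start, and capitals mark the longest run of a C and following pyrimidines. The first 5 genes have the tract at the start and represent both subunits and the stalk; the last 2, the study's reference gene and the paralog with the lowest p-value, have their longest run further on.
Rpl15, chr14:18270967-18270996, minus strand: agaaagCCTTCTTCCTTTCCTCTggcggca
Rpl35, chr2:39005112-39005141, minus strand: ccgCCCTTTCCTCTTTCTCTCgaaccaggc
Rps18, chr17:33955646-33955675, minus strand: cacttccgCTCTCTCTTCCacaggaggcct
Rps27, chr3:90213629-90213658, minus strand: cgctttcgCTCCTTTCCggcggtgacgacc
Rplp2, chr7:141447641-141447670, plus strand: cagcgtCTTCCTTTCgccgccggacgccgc
Rplp0, chr5:115559457-115559486, plus strand: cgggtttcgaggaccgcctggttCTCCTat
Rpl22l1, chr3:28805498-28805527, plus strand: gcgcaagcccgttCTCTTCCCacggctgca
These are annotated starts, not starts measured in these cells.

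Ribosomal protein genes were among the most highly expressed genes in every condition. FPKM, a level per length of the gene and per depth of the library, had a median of 130.2 over the 83 genes, compared with 5.24 over all 16222 genes that passed the filter on low counts. Of the 100 genes with the highest mean FPKM, 17 were ribosomal protein genes, and of the 200 highest, 32. The 5 highest were Rplp1, a stalk protein (732 FPKM), Rpl41, the smallest protein of the ribosome (668 FPKM), Rpl8 (577 FPKM), Rps15 (526 FPKM) and Rps3a1 (517 FPKM). These 5 differed little between libraries: Rplp1 lay between 668 and 792 FPKM over the 12 libraries and Rpl8 between 549 and 599.8 FPKM. Of the 83 genes, 80 passed the filter and were tested. Rpl24 (5.04 FPKM), Rpl21 (12.4 FPKM) and Rpl13a (13.7 FPKM), all core proteins of the large subunit, were the lowest of these, followed by the paralog Rpl22l1 (20.3 FPKM) and Rps15a (28.7 FPKM). FPKM depends on the gene length in the table, which was 3.61 times the longest coding sequence at the median. Rps15a is an example, with a length of 6270 bases for a coding sequence of 390 bases.

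**Figure D1:**
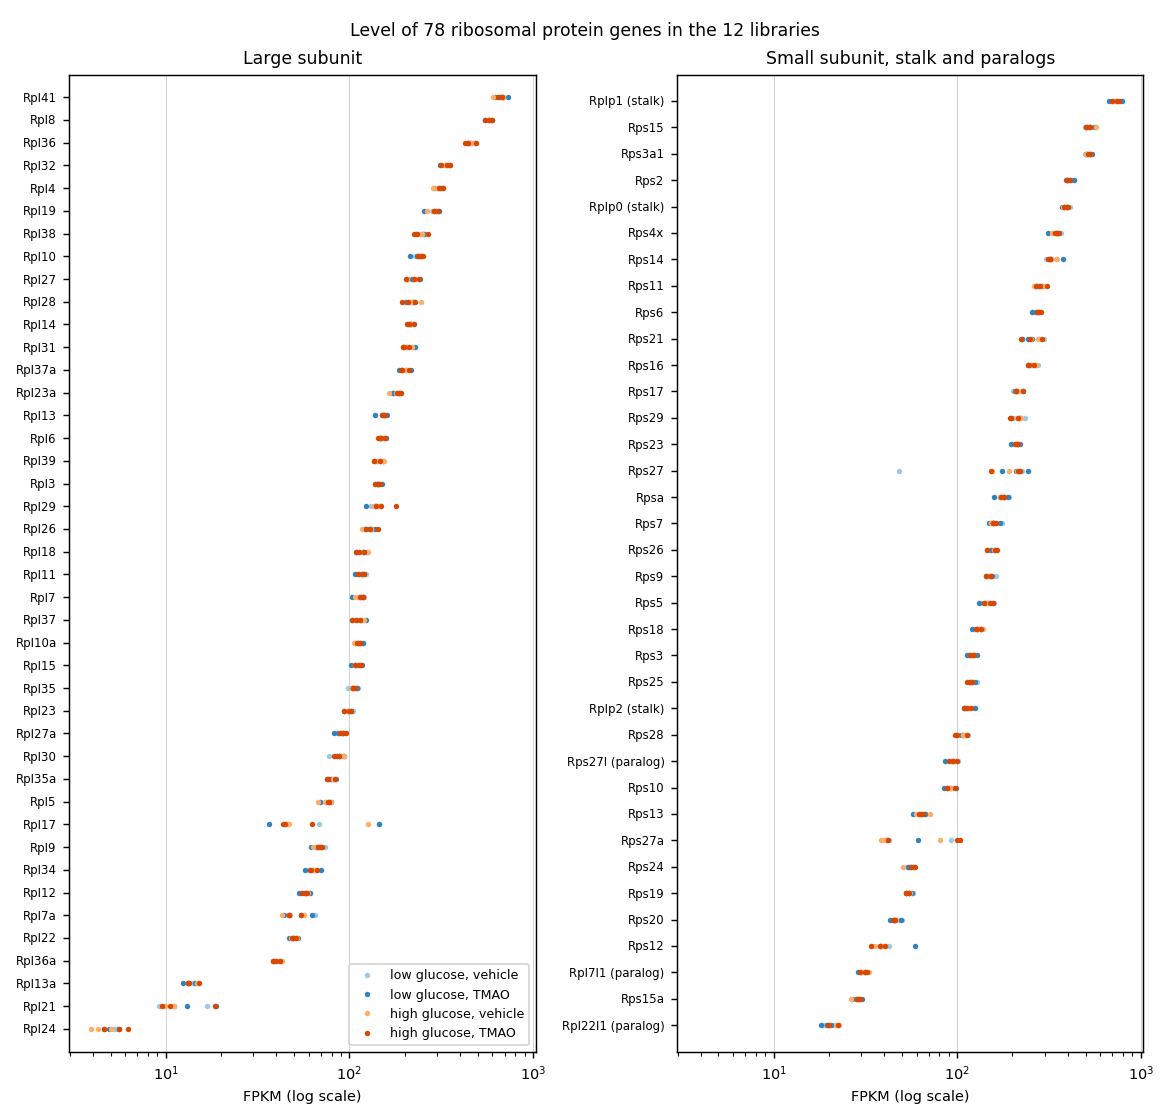
FPKM (log scale) of 78 of the 80 tested ribosomal protein genes, ordered by mean, with large-subunit genes in the left panel and small-subunit, stalk and paralog genes in the right panel; each point is 1 of the 12 libraries, coloured by condition. The 4 conditions lie on top of each other for most genes, from 5.04 FPKM for Rpl24 to 732 FPKM for Rplp1, whereas the points of Rps27, Rps27a, Rpl17, Rpl21 and Rps12 are spread.

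The paralogs fell into expressed and silent genes. Rps27l (94.3 FPKM), a p53-inducible paralog of Rps27, Rpl7l1 (30.8 FPKM), a paralog of Rpl7 that acts in ribosome assembly, and Rpl22l1 (20.3 FPKM), a paralog of Rpl22, were expressed in every library. Their core partners were higher, at 189 FPKM for Rps27, 114 FPKM for Rpl7 and 49.8 FPKM for Rpl22. Rpl3l, a paralog of striated muscle, had a mean of 1.5 counts per library, Rpl10l, a testis paralog, a mean of 0.083 counts, and Rpl39l, also known from testis, had 0 counts in all 12 libraries. At the lowest total, the 3 counts that a count of 0 allows are 1.79e-05% of a library. Rps4l, not among the 83 genes, was at 0.0325 FPKM.

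Together the 83 genes took a nearly constant share of each library. They held 2.28% ± 0.07 (SD, n = 3) of the counts in low glucose with vehicle, 2.26% ± 0.10 in low glucose with TMAO, 2.26% ± 0.03 in high glucose with vehicle and 2.27% ± 0.08 in high glucose with TMAO. The conditions overlapped, with single libraries between 2.18% and 2.37%. Large-subunit genes had 1.19 to 1.23 times the counts of small-subunit genes in every library. These are shares of the RNA sequenced, in which less of an mRNA per cell and fewer cells that hold it cannot be told apart. Relative to its mean over the 12 libraries, the median ribosomal protein gene deviated by -0.08 to 0.06 on the log2 scale per library, and the pooled SD between replicates was 0.05. The highest libraries, at 0.06 each, were the vehicle and TMAO libraries numbered 1 in low glucose, and the lowest, at -0.08, was TMAO library 3 in low glucose, so the spread between replicates was wider than the differences between conditions.

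Rplp0 encodes a protein of the ribosomal stalk and, under its older name 36B4, was the gene to which the study normalized its real-time PCR. Rplp0 (ENSMUSG00000067274) had 12892, 12428 and 11997 normalized counts in low glucose with vehicle and 12468, 11957 and 11762 in low glucose with TMAO. In high glucose it had 11917, 12363 and 12186 with vehicle and 12585, 11951 and 12447 with TMAO. The 4 conditions overlapped completely, and the coefficient of variation (CV, the SD as a percentage of the mean) over all libraries was 2.75%. The log2 fold change of Rplp0 with TMAO was -0.04 ± 0.04 (SE) in low glucose, with a 95% interval from -0.13 to 0.04, and 0.02 ± 0.04 in high glucose, with an interval from -0.06 to 0.10. High against low glucose gave -0.03 ± 0.04 with vehicle and 0.03 ± 0.04 with TMAO. None of these passed edgeR's test, with adjusted p-values of 1, 0.983, 0.814 and 0.80.

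In vehicle-treated cells, high against low glucose left the ribosomal protein genes below the threshold for a call, an adjusted p under 0.05 in the quasi-likelihood test of edgeR after adjustment over all genes. It called 3.3% of the 16222 tested genes and 0 of the 80 ribosomal protein genes. At an unadjusted p under 0.05 there was 1, compared with 13% of all genes. DESeq2 and limma on log2(FPKM + 1) called 0 as well. At an unadjusted p under 0.05 they found 0 and 1, compared with 10.6% and 12.9% of all genes. The median log2 fold change over the 80 genes was 0.00, with 40 genes higher and 40 lower, and that over all tested genes was also 0.00. For 71 of the 80 genes (88.8%) the 95% confidence interval lay within a change of 1.2-fold in either direction, which was so for 46.5% of all tested genes. Interval width depends on counts, here and in the comparisons below. A mean of at least 1000 counts was reached by 76 of the 80 genes but by 4843 of the 16222. Shares of intervals at equal counts were not compared. The 3 libraries of each side did not overlap for 2 genes, Rps20 and Rpl24, both lower in high glucose, compared with 18.8% of all genes.

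The gene with an unadjusted p under 0.05 was Rpl22l1. Rpl22l1 (ENSMUSG00000039221) had 787, 714 and 686 normalized counts in low glucose with vehicle and 753, 826 and 854 in high glucose with vehicle. With TMAO it had 774, 735 and 683 in low glucose and 752, 745 and 838 in high glucose. The groups overlapped, since the highest low-glucose library exceeded the lowest high-glucose library under both treatments. Its log2 fold change for glucose was 0.15 ± 0.07 (SE) with vehicle (unadjusted p = 0.0351, adjusted p = 0.326) and 0.09 ± 0.07 with TMAO (adjusted p = 0.622). Its core partner Rpl22 had means of 2750 ± 49.8 (SD) and 2755 ± 102 normalized counts in low and high glucose with vehicle.

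In TMAO-treated cells, glucose likewise gave 0 called genes among the 80, compared with 3.64% of all genes. At an unadjusted p under 0.05 there were 2, of which Rpl29 is described here, compared with 14.7% of all genes. DESeq2 and limma also called 0, with 2 and 1 at an unadjusted p under 0.05, compared with 12% and 14.2% of all genes. The median log2 fold change was 0.01, with 45 genes higher and 35 lower, and 71 intervals lay within 1.2-fold, compared with 45.3% of all genes. The libraries did not overlap for 1 gene, compared with 18.4% of all genes. Rpl29, a large-subunit protein, had 3115, 2936 and 2614 normalized counts in low glucose and 3809, 2963 and 3174 in high glucose, a log2 fold change of 0.20 ± 0.09 (adjusted p = 0.320). The last value rested on the high-glucose TMAO library 1, without which it was 0.09. When no filter on low counts was applied, Rpl29 was the only ribosomal protein gene called, at 0.19. In that fit 4 ribosomal protein genes had an unadjusted p under 0.05, compared with 9.75% of all genes.

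Averaged over both treatments, glucose called 8.19% of all genes but again 0 of the 80. At an unadjusted p under 0.05, 20.1% of all genes and 2 of the 80 were found, with Rpl22l1 at 0.12 ± 0.05 (adjusted p = 0.141). DESeq2 and limma called 0, with 2 and 1 at an unadjusted p under 0.05, compared with 17.2% and 19.6% of all genes. Of the 80 intervals, 73 (91.2%) lay within 1.2-fold, compared with 57.0% of all genes.

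TMAO gave no called ribosomal protein gene at either glucose level. In low glucose edgeR called 0 of the 80, compared with 0.00616% (1 gene) of all genes, and at an unadjusted p under 0.05 it found 0 of the 80, compared with 2.2% of all genes. The median log2 fold change was -0.02, with 29 genes higher and 51 lower, and the libraries did not overlap for 0 of the 80, compared with 6.36% of all genes. In high glucose edgeR called 0 of the 80 and 0% of all genes, and at an unadjusted p under 0.05 it found 1 of the 80, compared with 5.35%. The median was 0.00, with 39 genes higher and 41 lower. The libraries did not overlap for Rpl4 alone, which was higher with TMAO by 0.08 ± 0.04 (adjusted p = 0.910), compared with 11.1% of all genes. DESeq2 and limma on log2(FPKM + 1) called 0 at each glucose level. At an unadjusted p under 0.05 they found 0 and 0 in low glucose, compared with 1.22% and 2.73% of all genes. In high glucose they found 2 and 1, compared with 3.64% and 5.41% of all genes. Of the 80 intervals, 72 in low and 71 in high glucose lay within 1.2-fold, compared with 53.7% and 50.8% of all genes.

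Among the lower genes with TMAO in high glucose, Rps29, a small-subunit protein, gave -0.10 ± 0.05 (adjusted p = 0.910).

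**Figure D2:**
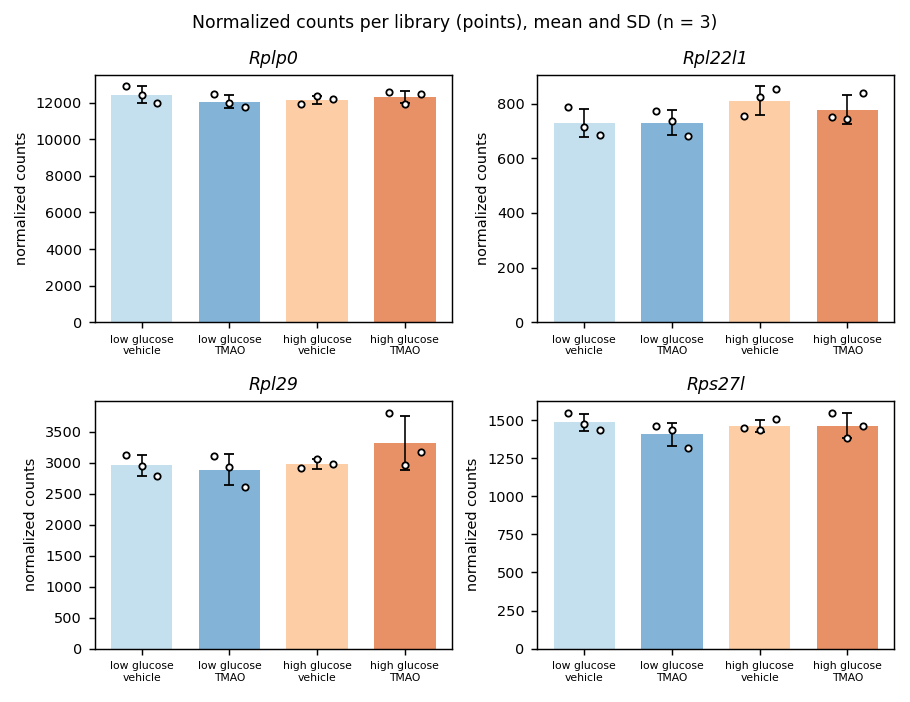
Normalized counts of Rplp0, of Rpl22l1 and Rpl29, which had an unadjusted p under 0.05 for glucose, and of the paralog Rps27l; bars are means of 3 libraries, error bars the SD and circles the libraries. For Rplp0 the means lie between 12062 and 12439, and for the other genes the circles overlap in each of the 4 pairwise comparisons.

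Averaged over both glucose levels, TMAO called 0 of the 80 and 0% of all genes. At an unadjusted p under 0.05 it found 0 of the 80 and 3.62% of all genes, and the median log2 fold change was -0.01, with 26 genes higher and 54 lower. The interaction, the difference of the glucose response between TMAO and vehicle, also called 0 of the 80 and 0% of all genes, with 0 and 3.36% at an unadjusted p under 0.05. DESeq2 and limma called 0 in both. At an unadjusted p under 0.05 they found 0 and 0 for the average, compared with 2.18% and 3.98% of all genes. For the interaction they found 0 and 1, compared with 2.04% and 3.68% of all genes. Intervals of the interaction are wider, and 64 of the 80 lay within 1.2-fold, compared with 33.5% of all genes.

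The largest fold changes among the 80 genes were those of the least even genes. Evenness is measured here by the CV over all 12 libraries, which a difference between conditions also raises. For most, replicates differed little: the median CV over the 12 libraries was 4.48%, compared with 8.26% over all tested genes, and 72 of the 80 were under 10%. At a mean of at least 1000 counts, where counting error is small, the 76 ribosomal protein genes (4.45%) and all 4843 genes (4.57%) had nearly the same median. The other 8 were Rpl17 (58.8%), Rps27a (43.6%), Rpl21 (28.7%), Rps27 (27.7%), Rps12 (16.3%), Rpl24 (12.4%), Rps21 (10.2%) and, between Rps12 and Rpl24, Rpl7a, a set defined after the values were seen. They include the most negative log2 fold change in each of the 4 pairwise comparisons, Rpl7a for glucose with vehicle (-0.27 ± 0.17), Rpl17 for glucose with TMAO (-0.60 ± 0.70) and for TMAO in high glucose (-0.56 ± 0.70), and Rps27a for TMAO in low glucose (-0.28 ± 0.49). The most positive were also theirs, Rps27 for glucose with vehicle (0.18 ± 0.47) and for TMAO in low glucose (0.35 ± 0.47), and Rps27a for glucose with TMAO (0.77 ± 0.49) and for TMAO in high glucose (0.61 ± 0.49). None of these passed edgeR's test, with adjusted p-values of 0.55 or higher. Single libraries set several of them. Without vehicle library 3 of low glucose, Rps27a in low glucose was 0.22 for TMAO, and Rps27 was -0.25 for glucose with vehicle and -0.08 for TMAO in low glucose. Without vehicle library 2 of high glucose, Rpl17 was 0.10 for TMAO in high glucose. Without TMAO library 2 of low glucose, Rpl17 was 0.31 for glucose with TMAO and -1.09 for TMAO in low glucose. In the same 2 comparisons Rps12 was -0.02 and -0.03 instead of -0.27 and 0.22. With all libraries, Rpl17 for TMAO in low glucose was -0.19 ± 0.67. It was 0.42 without vehicle library 2, 0.08 without TMAO library 1 and 0.14 without TMAO library 3 of low glucose. Without TMAO library 2 of high glucose, Rpl21 was -0.52 for glucose with TMAO and -0.08 for TMAO in high glucose, instead of -0.14 and 0.30. For glucose with TMAO, Rpl21 was 0.11 without TMAO library 2 of low glucose and 0.04 without TMAO library 3 of high glucose.

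**Figure D3:**
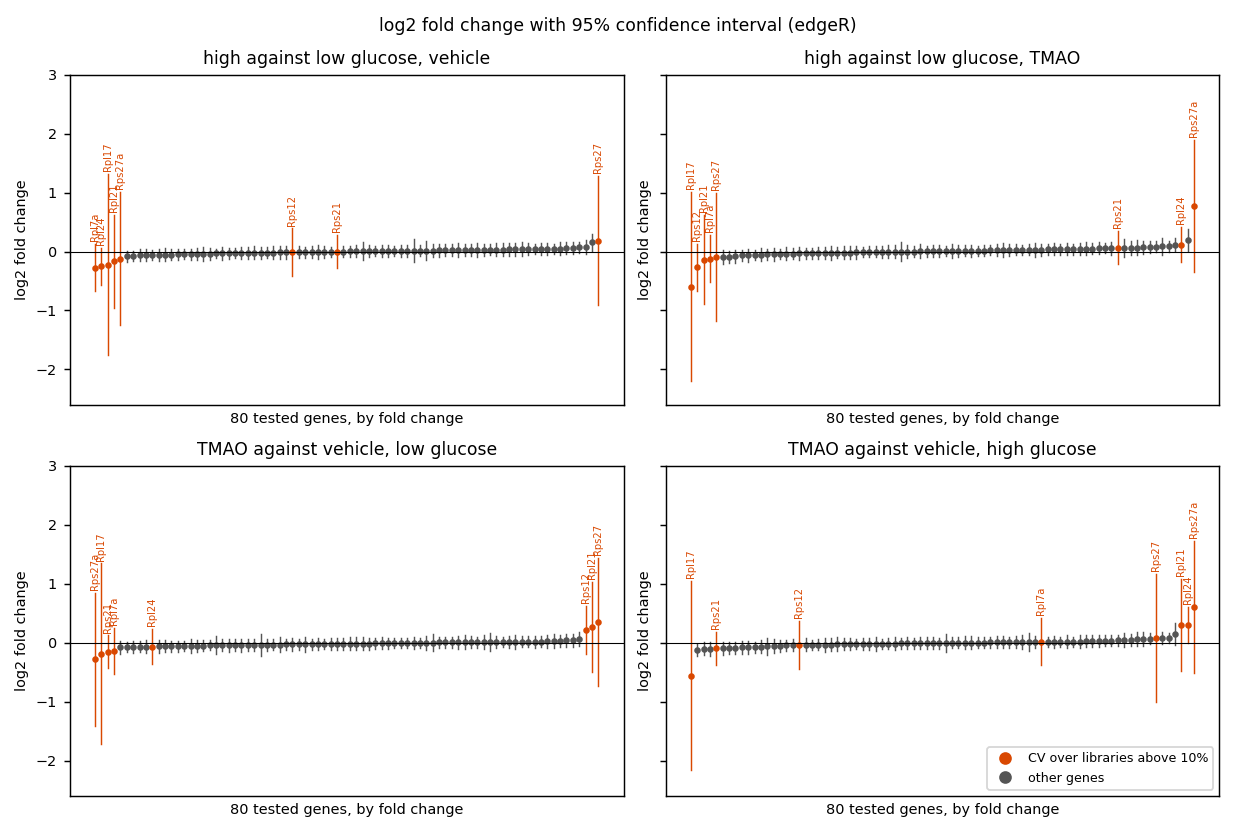
log2 fold change (point) and 95% confidence interval (line) of the 80 tested genes in the 4 pairwise comparisons, ordered by fold change; orange marks the 8 genes with a CV above 10% over the 12 libraries. The grey genes stay close to 0 and the ends of each order are mostly orange, from -0.60 for Rpl17 to 0.77 for Rps27a.

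Ribosomal protein mRNAs share long stretches with their copies elsewhere in the genome, and a fragment that lies wholly within such a stretch matches both. In the GENCODE M21 transcripts (GRCm38), 75 of the 83 genes had at least 1 stretch of 100 bases that also occurs in a transcript of another gene, and in 16 genes at least 50% of such stretches did. The reads were longer than 100 bases, so 1 such stretch alone does not make a fragment match both. The median share was 44.3% for the 8 uneven genes and 22.5% for the other 72 tested genes, but 13 of those 72 also shared at least 50%. Rows of pseudogenes named after them existed for 58 of the 83 genes. Of the 80 tested genes, 3 had fewer counts of their own than the rows that share sequence with them, Rpl21, Rpl17 and Rpl24.

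Coding sequences show how alike gene and copy are. Rps27 lies on chr3, and Rps27rt, an intronless copy annotated as protein-coding, at chr9:114982366-114982739 on the minus strand. Their coding sequences were compared over all 255 bases and had 0 differences, and the beginning of each is given here as bases 1 to 60 from the start codon.
Rps27: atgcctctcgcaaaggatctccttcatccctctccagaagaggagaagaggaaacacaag
Rps27rt: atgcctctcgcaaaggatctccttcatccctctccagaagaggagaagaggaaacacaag
Rps27a encodes ubiquitin fused to a small-subunit protein, and the processed pseudogene Gm8430 (chr6:122456904-122457374, plus strand) differed from its coding sequence by 1 of 471 bases, A71G, counted from the start codon; bases 41 to 100 have it in capitals.
Rps27a: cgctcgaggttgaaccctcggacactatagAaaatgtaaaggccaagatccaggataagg
Gm8430: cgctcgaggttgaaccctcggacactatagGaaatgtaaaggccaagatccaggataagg
Rpl21, a large-subunit protein, and the gene BC004004 (chr17:29268788-29314065, plus strand) differed by 7 of 483 bases, of which G399A, T432C and G433A fall in bases 391 to 450.
Rpl21: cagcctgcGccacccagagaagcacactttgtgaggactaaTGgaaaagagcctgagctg
BC004004: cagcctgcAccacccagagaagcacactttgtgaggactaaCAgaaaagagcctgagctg
Rpl24 and the processed pseudogene Gm9385 differed by 1 of 471 bases, and Rpl17 and Rpl17-ps10 by 4 of 555.

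For Rps27 and Rpl17, gene and copy differed in opposite directions from library to library. Adding steadier rows lowers a CV by itself, so each CV of a sum is given beside the value that the same rows would give if gene and copies varied without covariance. Rps27 had 4288, 4444 and 953 normalized counts in low glucose with vehicle, 4772, 4135 and 3460.4 in low glucose with TMAO, 4198, 3759.9 and 3035 in high glucose with vehicle, and 4335, 3034 and 4235 in high glucose with TMAO. In the same order, Rps27rt had 2100.0, 1567 and 4975, then 1680.1, 1762 and 2483, then 1984, 2624 and 3152, then 1946, 2581 and 1532. Rps27rt was highest in vehicle library 3 of low glucose, where Rps27 was lowest. Summed, the rows lay between 5616 and 6452 in the 12 libraries, and the CV fell from 27.7% for Rps27 and 40.5% for Rps27rt to 4.38%, compared with 23.1% without covariance. The log2 fold change for TMAO in low glucose was 0.35 ± 0.47 for Rps27 alone and 0.00 ± 0.05 for the sum.

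For Rpl17, a large-subunit protein, the counterpart was a pseudogene. It had 661, 2122 and 998 normalized counts in low glucose with vehicle, 653, 2129.6 and 534 in low glucose with TMAO, 680.4, 1841 and 688 in high glucose with vehicle, and 652, 635 and 919 in high glucose with TMAO. Rpl17-ps10 had 2748, 1173 and 2215, then 2882, 1242 and 2624, then 2682, 1473.5 and 2584, then 2853, 2728 and 2475. The 3 libraries with the most Rpl17 counts, all numbered 2, were the 3 with the fewest Rpl17-ps10 counts. With all 15 rows that share sequence, the sum lay between 4598 and 5098 and its CV was 3.18%, compared with 18.8% without covariance and 58.8% for Rpl17 alone. Its fold change for TMAO in high glucose was -0.56 ± 0.70 alone and 0.04 ± 0.04 summed, and for glucose with TMAO -0.60 ± 0.70 alone and 0.02 ± 0.04 summed.

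Rpl21 had between 591 and 1208.5 normalized counts in the 12 libraries, and the 38 rows that share sequence with it, led by BC004004 with a mean of 1676 and Rpl21-ps15 with 1204, had 434 counts for every 100 of its own. The CV was 28.7% for Rpl21 alone and 3.74% for the sum, compared with 6.70% without covariance, and the fold change for TMAO in high glucose was 0.30 ± 0.34 alone and 0.08 ± 0.04 summed. For Rps12, Rpl7a and Rpl24 the CV of the sum was 9.03%, 8.64% and 8.57%, close to the 10.2%, 9.76% and 8.53% without covariance, so the lower CV of these 3 genes was mostly that of a larger sum. TMAO library 2 of low glucose, the highest for Rps12 alone, was still the highest after summing, with 3159 normalized counts and 2645 in the next. Rpl24, the lowest of the 80, had a mean of 98.1 normalized counts of its own and 444 with its copies.

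Rps27a has few counts in copies. It had 1459, 1593 and 3444 normalized counts in low glucose with vehicle, 1547, 1519 and 2275 in low glucose with TMAO, 1435, 2992 and 1505 in high glucose with vehicle, and 3882.5, 1567 and 3707 in high glucose with TMAO. In 7 of the 12 libraries it lay between 1435 and 1593, and in the other 5 between 2275 and 3882.5, libraries that came from all 4 conditions. The 4 rows that share sequence with it had a mean of 424 normalized counts, and the CV of the sum was 35.3%, compared with 36.7% without covariance. Rps21 shares no 100-base stretch with another annotated transcript, and its CV of 10.2% had no copy to be set beside. How the fragments of these genes were placed was not tested.

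With each gene summed with its copies, an alternative chosen after the data were seen, edgeR again called 0 of the 80 in all 7 comparisons, with 0 to 2 at an unadjusted p under 0.05. In that fit 0% to 8.18% of all genes were called, depending on the comparison, and 2.2% to 20.1% had an unadjusted p under 0.05. Fold changes larger than 0.15 on the log2 scale, in either direction, numbered 6, 4, 6 and 4 of 80 for glucose with vehicle, glucose with TMAO, TMAO in low glucose and TMAO in high glucose when genes were counted alone, and 2 in each when summed, which partly follows from the added counts. For glucose with vehicle these were Rpl7a (-0.19 ± 0.07, adjusted p = 0.233) and Rpl22l1 (0.15 ± 0.07), and Rps27a was among them in the other 3 comparisons.

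**Figure D4:**
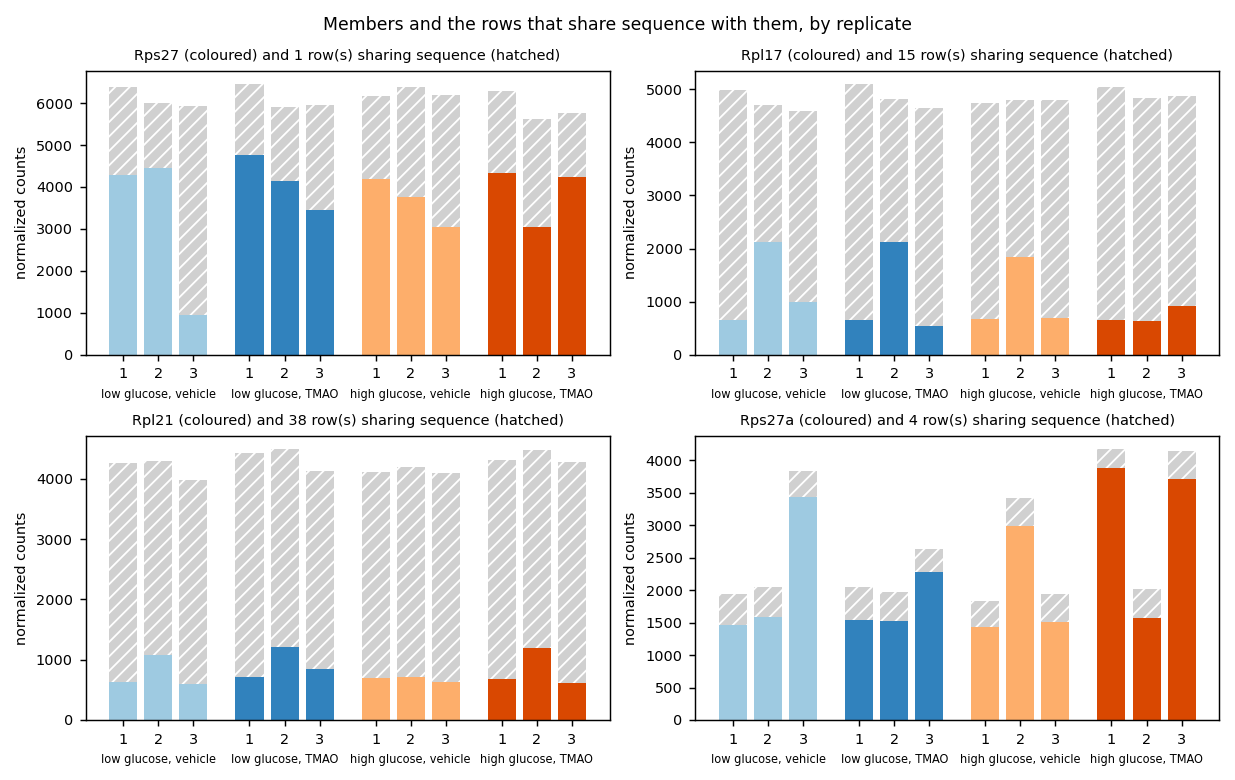
Normalized counts of Rps27, Rpl17, Rpl21 and Rps27a (coloured by condition) with the summed rows that share at least 1 stretch of 100 bases with them (hatched, stacked on top) in the 12 libraries, numbered by replicate. The tops of the bars are level for Rps27 (5616 to 6452), Rpl17 (4598 to 5098) and Rpl21 (3989 to 4489) and uneven for Rps27a (1836 to 4170).

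**Figure D5:**
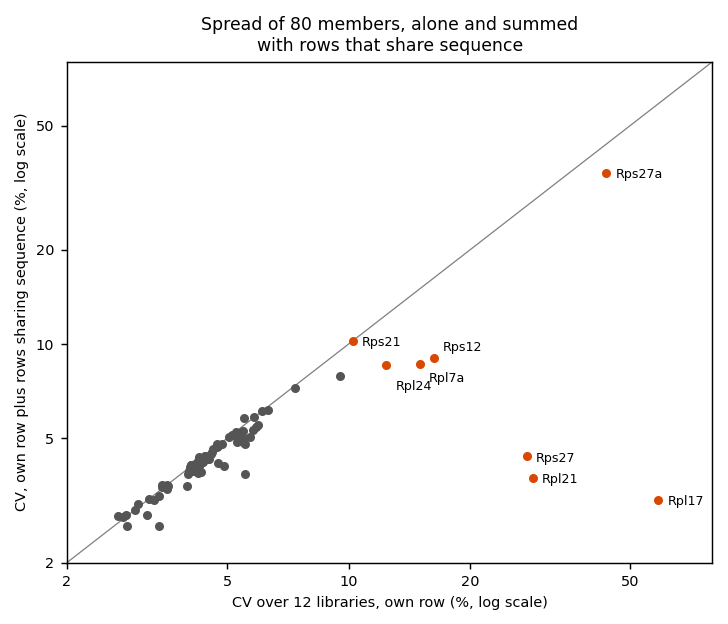
CV over the 12 libraries of each of the 80 tested genes counted alone (horizontal axis) and summed with the rows that share sequence (vertical axis), both in percent on log scales, with the line of equality; orange marks the 8 genes above 10% alone. Of these 8, 6 lie between 3.18% and 9.03% when summed, and Rps27a (35.3%) and Rps21 (10.2%) above 10%, with 19 and 0 counts in copies for every 100 of their own.

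Other genes of the ribosome and its supply were compared in the same fit. Of 5 further cytosolic ribosomal protein genes (Fau, Rack1, Rpl36al and Rps27rt among them), 0 were called by edgeR in any comparison, with 0 at an unadjusted p under 0.05. Fau was as abundant as the core genes, at 402 FPKM, and its log2 fold change for TMAO was 0.02 ± 0.05 in low glucose and -0.08 ± 0.05 in high glucose. Of 18 translation factors and other mRNAs with terminal pyrimidine tracts, such as Eef1a1 and Eef2, 0 were called in any comparison, with 0 or 1 at an unadjusted p under 0.05. Shares of all genes called were 3.3%, 3.64% and 8.19% for glucose and at most 0.00616% for TMAO, so that lists of this size hold few or no called genes at the background share. Of 39 genes of ribosome biogenesis, 1 (compared with 3.64% of all genes called) rose with glucose in TMAO-treated cells, Nolc1, a nucleolar phosphoprotein that binds box C/D and H/ACA particles. Nolc1 had 1878, 2022 and 1928 normalized counts in low glucose and 2245, 2161 and 2186 in high glucose with TMAO, without overlap, and rose by 0.18 ± 0.05 (adjusted p = 0.0259). Averaged over both treatments, where 8.19% of all genes were called, 2 of the 39 were. Nolc1 rose by 0.12 ± 0.03 (adjusted p = 0.0132) and Taf1d, a subunit of the RNA polymerase I selectivity factor, fell by 0.15 ± 0.05 (adjusted p = 0.0345). The medians of the 39 genes in these comparisons were -0.02 and -0.01.

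Of 20 genes of the mTORC1 pathway and the Myc family, 1 fell with glucose averaged over both treatments, again compared with 8.19% of all genes called, Mlst8, a subunit of the mTOR complexes, by 0.21 ± 0.05 (adjusted p = 0.0086). Mtor itself gave 0.00 ± 0.03, and Myc, at 0.94 FPKM, gave -0.33 ± 0.16 (adjusted p = 0.246). Of 77 tested genes of the mitochondrial ribosome, which is built from a separate set of proteins, 3 fell in the same comparison, a smaller share than the 8.19% of all genes, Mrps2 by 0.19 ± 0.05 (adjusted p = 0.00935), Mrpl14 by 0.15 ± 0.04 (adjusted p = 0.0239) and Mrpl49 by 0.12 ± 0.04 (adjusted p = 0.0487). The median of the 77 was -0.01. Mrps2 had between 723 and 854 normalized counts in the 6 low-glucose libraries and between 645 and 699.6 in the 6 high-glucose libraries. For TMAO at either glucose level, its average and the interaction, edgeR called 0 genes of these lists, with 0 to 3 of each at an unadjusted p under 0.05, where 0% to 0.00616% of all genes were called and 2.2% to 5.35% had such a p.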

How the data were processed

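MIN6 cells were sequenced in 12 libraries, 3 biological replicates of each of 4 conditions, which were grouped by the sample labels. Libraries were made from poly-T-selected RNA with the NEBNext Ultra kit, and the strand setting of the counting is not given in the sources used here. The authors deposited counts of fragments per gene, without normalization, and FPKM values computed from them. The submitters' processing notes name HISAT2 2.0.5, featureCounts 1.5.0-p3, DESeq2 1.16.1 and mm10. How fragments matching several places were treated is not stated there, which bears on genes with near-identical copies.

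All genes were tested together with edgeR 4.0.16 in R 4.3.3 (filterByExpr, TMM normalization, robust quasi-likelihood test, all 12 libraries, Benjamini-Hochberg adjustment over 16222 genes, adjusted p under 0.05). Standard errors (SE) were obtained by dividing each log2 fold change by the root of its F statistic. Normalized counts were scaled to a common library size after TMM. Genes were named by rule: Rplp0; genes called; the 3 largest rises and falls in each pairwise comparison at a mean of at least 50 counts; the 5 highest and 5 lowest levels; paralogs with their core partners; and up to 6 called genes of each other list. Genes with a CV above 10%, and those with an unadjusted p under 0.05 or without overlap, were chosen after their values were seen. Members and lists were chosen with earlier results of these data known. A few genes are counted in the totals but not reported by name here. The fits were tested on simulated counts. DESeq2 1.42.0, limma 3.58.1 (log2 of FPKM plus 1 or 0.1, which understates changes of low genes), other normalizations and filters, a length correction, a replicate block and leaving out each library were alternatives.

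Coordinates are from GENCODE M21 (GRCm38), which gives 75 of the 83 genes at the same place as the table. Copies were found as exact matches of 100 bases between M21 transcripts. Start windows are from RefSeq. Figures were drawn with matplotlib 3.10.9.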

Additional observations from a re-analysis of the deposited data

Results flagged for a closer look

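Outside the 83 genes, rows annotated as pseudogenes and named after ribosomal protein genes held between 0.115% and 0.133% of the counts of a library, a signal in rows that are not among those genes. Copies under other names, such as Gm8430 and Gm9385, are not in this share. There were 286 such rows, of which 171 had at least 1 count and 84 passed the filter and were tested with all other genes. The highest means were those of Rpl17-ps10 with 2296 counts per library, Rps10-ps2 with 1539.8 and Rpl14-ps1 with 1452. The share was 0.122% ± 0.006 (SD, n = 3) in low glucose with vehicle, 0.125% ± 0.009 in low glucose with TMAO, 0.120% ± 0.005 in high glucose with vehicle and 0.127% ± 0.006 in high glucose with TMAO, and the conditions overlapped. How much of this came from the pseudogenes and how much from the genes was not tested.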

How the results depend on the processing

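The number of ribosomal protein genes called was 0 in every comparison of each alternative run, with 1 exception. Without a filter on low counts 1 was called for glucose with TMAO, Rpl29 at 0.19, where 9.75% of all genes had an unadjusted p under 0.05. The cause was not tested. Fits of only the 6 libraries compared were run for the pairwise comparisons alone. The median log2 fold change over the genes moved by less than the SD between replicates (0.05) under every alternative. With a library left out, 0 genes were called, and the medians lay between -0.056 and 0.054 over all comparisons. As a share of summed FPKM instead of counts, the genes held 4.505% in low glucose with vehicle, 4.46% in low glucose with TMAO, 4.44% in high glucose with vehicle and 4.43% in high glucose with TMAO. Against counts on protein-coding genes only, the shares were all slightly higher, at 2.33%, 2.31%, 2.31% and 2.32% in the same order, a shift above the SD between replicates only for high glucose with vehicle (2.31%). Of the fold changes of named genes, 698 values under alternatives stayed within 1 SE of the reported value and below the threshold, and 11 moved by more; apart from those given above, these were Rpl28 (0.01 for glucose with vehicle without vehicle library 1 of high glucose, instead of 0.08), Rpl24 (-0.01 for glucose with vehicle when summed with its copies, instead of -0.25) and Rplp0 (-0.04 for average glucose with the length trend removed, instead of 0.00).

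With a replicate block, 0 ribosomal protein genes were called in any comparison, and 0 to 7 had an unadjusted p under 0.05. The 7 were for TMAO in high glucose, where 1 was found without the block, and 6.81% of all genes had such a p with it. Over all alternatives this number was at most 2 for glucose with vehicle, and in the other comparisons it was highest when a library was left out. Without high-glucose TMAO library 1 it was 9 of 80 for TMAO in high glucose, where 5.38% of all genes had such a p, and 5 for average TMAO (3.46%). Without low-glucose TMAO library 1 it was 6 for TMAO in low glucose (3.17% of all genes), where it was 0 with all libraries, 6 for glucose with TMAO (12.4%), 6 for average glucose (17.8%) and 4 for the interaction (3.94%), which had 4 also without high-glucose vehicle library 2 (5.22%). The labels do not say whether the numbers pair the libraries, and the correlations do not settle it. Deviations of same-numbered libraries of different conditions correlated at a mean of 0.03 over 18 pairs, of which 2 were over 0.1. Those of differently numbered libraries correlated at a mean of -0.02 over 36 pairs, of which 0 were over 0.1.

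Depth limits statements on Rpl3l, Rpl10l and Rpl39l, which were too low to test, and on Rpl24. Counts of genes with near-identical copies, or with exons that overlap another gene, depend on how fragments were placed, which was not tested.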
